A study of Mus musculus with 109 samples.

Results

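The genes described here are 38 mouse genes of fatty acid oxidation: carriers that bring fatty acids into the cell, the enzymes that activate them, the carnitine shuttle, the mitochondrial and peroxisomal oxidation enzymes, and regulators of the pathway. They were listed by function, and their probes were found by gene symbol among 25697 probes of an Illumina mouse bead array. Probes with a detection p-value below 0.01 on at least 6 arrays of the series were used, which left 54 probes of 33 of the listed genes among 15363 kept probes of 11346 genes or unnamed probes. Of the other 5 genes, Hadha and Acsl1 had no probe under their symbol. Cpt1a, the liver form of carnitine palmitoyltransferase 1, Crot, the peroxisomal carnitine octanoyltransferase, and Ppara, the fatty acid receptor that controls many genes of the pathway, had probes that were detected on 0 arrays.

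Lung RNA was profiled from 8 groups of mice. Mice with both copies of Fam13a deleted (Fam13a-/-; 13 smoke, 6 air) and mice with 1 deleted copy of Hhip (Hhip+/-; 14 smoke, 12 air) were compared with C57BL/6J wild-type mice (28 smoke, 22 air), and all of these arrays carry the strain label C57BL6. NZW/LacJ mice (6 smoke, 8 air) are also labelled wild type. The titles of these 14 arrays name C57, and the strain field alone marks them as NZW/LacJ. Smoke mice breathed a mixture of main-stream and side-stream smoke of 3R4F research cigarettes on 5 days a week for 6 months, and air mice breathed filtered air. No label states sex, age, litter, slide or whether each array is a separate animal, so p-values measure the spread between these arrays.

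Long-chain fatty acids are tied to coenzyme A at the cell's membranes, passed to carnitine by carnitine palmitoyltransferases, carried across the inner mitochondrial membrane and shortened in rounds of dehydrogenation, hydration, dehydrogenation and thiolysis. Peroxisomes shorten very long and branched chains by a related set of enzymes. In lung, alveolar type 2 cells both make and burn fatty acids, since the lipid of surfactant is built from them, and heart and brown fat are rich in the same oxidation enzymes.

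Values are log2 signals after background correction and quantile normalization, and a difference of 1 is a doubling. A gene was read from its brightest kept probe, and a difference was called when limma's adjusted p over all 15363 kept probes was below 0.05. Between 36.04 and 53.9% of probes were detected per array, with a median of 49.9%. The Fam13a probe had lowest, median and highest values of 4.59, 5.43 and 6.22 in Fam13a-/- smoke lungs, against 4.98, 6.17 and 7.26 in wild-type smoke lungs. The ranges overlapped and the difference was not called (-0.64 ± 0.26, SE; adjusted p = 0.161). It was -0.42 ± 0.36 in air (adjusted p = 0.962). The sources used here do not place this probe relative to the deleted part, so it does not check the knockout labels. The Hhip probe differed by -0.03 ± 0.13 between Hhip+/- and wild-type smoke lungs (adjusted p = 0.951) and by -0.04 ± 0.14 in air (adjusted p = 0.977), so it does not separate those labels either. The same Hhip probe was called lower in Fam13a-/- than in wild-type smoke lungs (-0.46 ± 0.13, limma adjusted p = 0.0214). In air that difference was -0.28 ± 0.18 and was not called (adjusted p = 0.911). Among the NZW/LacJ arrays, 2 stood apart: H2-Ea, a class II antigen-presentation gene, read 4.37 on air replicate 5 and 4.74 on smoke replicate 5, against at least 9.09 on the other 12 and at most 8.03 on any C57BL/6J wild-type array. Differences that rest on NZW/LacJ arrays are therefore given with and without these 2 arrays.

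The main comparison asked what loss of Fam13a did to these genes after smoke. Acsl3, Acot1, Slc27a1 and Echs1 were higher in Fam13a-/- smoke lungs than in wild-type smoke lungs, by 1.15-fold to 1.41-fold. They act at fatty acid activation, at release of free fatty acids from coenzyme A, at uptake and at the second step of mitochondrial oxidation. No member was lower. The 4 calls are 12.1% of the 33 measured members, while 5.77% of all genes were called in either direction and 3.54% were called higher. Among the members, 31 of 33 differences were positive, against 45.2% of all genes, and the median difference was 0.17 among members and -0.02 over all genes. Lung is a mixture of cell types, so a change in the number of cells of a type and a change in RNA per cell cannot be told apart.

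The 250 bases before the start of each of these 4 genes are shown because the genes were called together. They are from RefSeq on GRCm38.p6, written 5′ to 3′ on the gene's strand, with matches to the GC box GGGCGG on either strand in capitals. Acsl3 is at chr1:78657575-78657824 on the plus strand and Acot1 at chr12:84009252-84009501 on the plus strand. The most upstream of 3 listed starts was taken for Slc27a1, at chr8:71568621-71568870 on the plus strand, and Echs1 is at chr7:140116422-140116671 on the minus strand.
Acsl3: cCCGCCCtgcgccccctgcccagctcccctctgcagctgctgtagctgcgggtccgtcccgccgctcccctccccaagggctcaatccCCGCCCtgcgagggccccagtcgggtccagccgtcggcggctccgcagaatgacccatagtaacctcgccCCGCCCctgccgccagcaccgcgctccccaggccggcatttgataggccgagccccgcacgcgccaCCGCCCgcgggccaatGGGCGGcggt
Acot1: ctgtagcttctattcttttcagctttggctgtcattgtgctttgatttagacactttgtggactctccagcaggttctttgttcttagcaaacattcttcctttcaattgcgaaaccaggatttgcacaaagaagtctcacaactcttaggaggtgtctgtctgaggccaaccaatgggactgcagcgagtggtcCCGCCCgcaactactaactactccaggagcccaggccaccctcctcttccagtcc
Slc27a1: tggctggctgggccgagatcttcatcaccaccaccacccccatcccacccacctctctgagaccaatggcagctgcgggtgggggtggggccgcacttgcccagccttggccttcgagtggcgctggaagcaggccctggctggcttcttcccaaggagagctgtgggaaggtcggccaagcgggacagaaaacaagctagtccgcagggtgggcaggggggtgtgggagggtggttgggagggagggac
Echs1: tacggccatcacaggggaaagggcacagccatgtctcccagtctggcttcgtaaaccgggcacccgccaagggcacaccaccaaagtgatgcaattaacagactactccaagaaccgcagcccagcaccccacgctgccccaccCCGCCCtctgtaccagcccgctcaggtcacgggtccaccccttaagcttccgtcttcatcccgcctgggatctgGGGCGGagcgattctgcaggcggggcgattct
These windows hold 5 GC boxes in Acsl3, 1 in Acot1, 0 in Slc27a1 and 2 in Echs1, and 75.6%, 48.8%, 66.4% and 62.8% of their bases are G or C, in that order of genes. Over windows of 250 bases before to 50 after the start, 33 of the 38 members had an entry and 25 of these held a GC box (75.8%), against 66.2% of 8458 measured genes and 38.2% of all 27025 genes in the table. The direct repeat AGGTCANAGGTCA, the textbook element of PPAR receptors, was searched on both strands and lay in 0 of the 33 members' windows and in 0.0355% of the measured genes' windows. A looser form, AGGNCANAGGNCA, which contains the first, was also in 0 members and in 0.343% of measured genes. CCAAT boxes lay in 17 member windows (51.5%), against 42.8% of measured genes. These are matches of letters in short windows only.

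Acsl3, which joins coenzyme A to long-chain fatty acids and sits on the endoplasmic reticulum and lipid droplets, had the smallest adjusted p among the members. Its lowest, median and highest values were 8.47, 9.08 and 9.78 in Fam13a-/- smoke lungs, against 8.19, 8.60 and 9.18 in wild-type smoke lungs. The ranges overlapped, and 11 of 13 Fam13a-/- arrays lay above the wild-type mean. The means were 9.11 ± 0.38 and 8.61 ± 0.24 (SD, n = 13 and 28), a difference of 0.50 ± 0.09 (SE; limma adjusted p = 0.000123). Across the alternative settings the difference ranged between 0.28 and 0.50, and with the mean of ciliated cell markers as a covariate it was no longer called (adjusted p = 0.154).

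Acot1, a cytosolic thioesterase that splits acyl-CoA into free fatty acid and coenzyme A, had values of 12.04, 12.56 and 13.08 (lowest, median, highest) in Fam13a-/- smoke lungs, against 11.43, 12.15 and 12.69 in wild-type smoke lungs. The ranges overlapped, with 12 of 13 Fam13a-/- arrays above the wild-type mean. The difference was 0.43 ± 0.10, or 1.35-fold (limma adjusted p = 0.0053). A second Acot1 probe gave means of 9.80 and 9.16 and a difference of 0.63 ± 0.13 (limma adjusted p = 0.000816), with 13 of 13 arrays above the wild-type mean. Acot1 and its mitochondrial relative Acot2 have near-identical sequences, so the split of signal between them is uncertain. Acot2 itself averaged 6.13 ± 1.10 in Fam13a-/- smoke lungs and 5.71 ± 0.64 in wild-type smoke lungs, a difference of 0.43 ± 0.25 that was not called (adjusted p = 0.408).

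Slc27a1, a fatty acid transport protein of the plasma membrane, had values of 7.12, 7.49 and 8.65 in Fam13a-/- smoke lungs, against 6.63, 7.16 and 7.70 in wild-type smoke lungs. The ranges overlapped and 10 of 13 arrays lay above the wild-type mean, with a difference of 0.40 ± 0.12 (limma adjusted p = 0.0339). Echs1, the short-chain enoyl-CoA hydratase of mitochondria, had values of 9.91, 10.12 and 10.49 in Fam13a-/- smoke lungs, against 9.70, 9.94 and 10.35 in wild-type smoke lungs. Its difference was 0.20 ± 0.06, with 11 of 13 arrays above the wild-type mean and overlapping ranges (limma adjusted p = 0.0455). Leaving out single Fam13a-/- smoke arrays kept Acsl3 and Acot1 called in all 13 fits and gave 2 to 7 called members. The count was 2 without replicate 2, 9, 11 or 13, and 7 without replicate 4 or 7. With no detection filter, 2 members were called, and Slc27a1 (adjusted p = 0.0527) and Echs1 (adjusted p = 0.0546) were not among them. The number of all probes called without single arrays or without the filter is not given here. Over 15 alternative settings, single arrays left out aside, Slc27a1 lost its call in 6 and Echs1 in 7. For Slc27a1 these included the share of detected probes as a covariate (0.38, adjusted p = 0.056). For Echs1 they included median scaling (0.19, adjusted p = 0.178) and a fit of only the groups compared (0.20, adjusted p = 0.101). Both also lost it with each of 4 marker covariates.

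**Figure D1:**
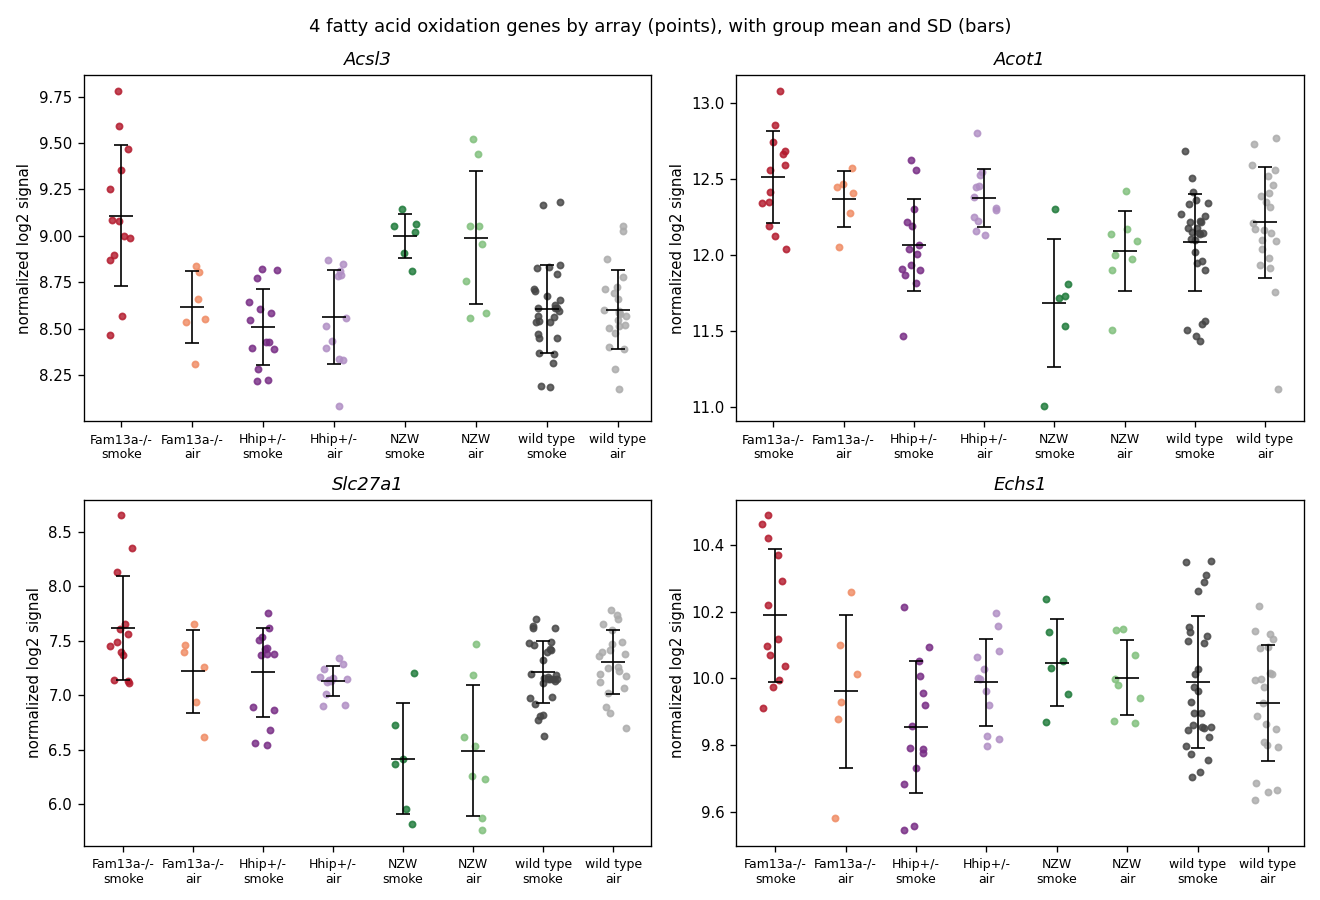
Normalized log2 signal (vertical axes) of Acsl3, Acot1, Slc27a1 and Echs1 on each array (points) in the 8 groups, with group mean and SD (bars). Acsl3 averages 9.11 in Fam13a-/- smoke lungs, against 8.62 in Fam13a-/- air lungs and 8.61 in wild-type smoke lungs, and the points of all these groups overlap.

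The other genes of uptake and activation were not called. Fabp3, the fatty acid-binding protein of heart and muscle, had the largest difference of any member. Its values were 7.31, 10.45 and 10.997 in Fam13a-/- smoke lungs, against 7.49, 9.63 and 10.56 in wild-type smoke lungs, and the difference of 0.72 ± 0.29 did not pass the test (adjusted p = 0.147). It was called without replicate 4 (0.95, adjusted p = 0.0291). Cd36, the fatty acid translocase, had values of 4.43, 5.01 and 6.27 in Fam13a-/- smoke lungs, against 4.41, 5.26 and 6.17 in wild-type smoke lungs. Its probe was detected on 3 of 13 and 13 of 28 of these arrays, and its difference was -0.22 ± 0.21 (adjusted p = 0.682). Acsl4, which prefers arachidonic acid, and Acsl5, of mitochondria and endoplasmic reticulum, each differed by 0.05.

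All 4 measured genes of the carnitine shuttle had positive differences and none was called. Cpt1b, the muscle form of carnitine palmitoyltransferase 1, had values of 5.24, 6.51 and 7.45 in Fam13a-/- smoke lungs, against 5.10, 6.05 and 7.16 in wild-type smoke lungs. The ranges overlapped widely, and the difference was 0.52 ± 0.18 (adjusted p = 0.0746). It was called without replicate 4 (0.63, adjusted p = 0.0231), without replicate 7 (0.60, adjusted p = 0.0343) and with median scaling (0.60, adjusted p = 0.0287). Slc25a20, the carnitine-acylcarnitine carrier, differed by 0.21 ± 0.07 with 12 of 13 arrays above the wild-type mean (adjusted p = 0.0531). Cpt2, of the inner membrane, differed by 0.14 (adjusted p = 0.2) and Crat, which buffers acetyl-CoA as acetylcarnitine, by 0.07.

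The mitochondrial enzymes other than Echs1 had small positive differences that were not called. Acadvl, the first dehydrogenase for very long chains, averaged 9.95 in Fam13a-/- smoke lungs and 9.79 in wild-type smoke lungs (adjusted p = 0.0996). The long-chain dehydrogenase Acadl averaged 9.26 ± 0.85 and 8.88 ± 0.54 in the same order of groups (adjusted p = 0.296). Acadm, for medium chains, differed by 0.04 and Acads, for short chains, by 0.23. Hadhb, the thiolase subunit of the trifunctional protein, differed by 0.06, Hadh, the short-chain hydroxyacyl-CoA dehydrogenase, by 0.22, and the thiolase Acaa2 by 0.20. The Hadh probe was detected on 3 of 13 Fam13a-/- smoke arrays and 4 of 28 wild-type smoke arrays. The electron transfer flavoprotein subunits Etfa and Etfb, which take electrons from the dehydrogenases, differed by 0.15 (adjusted p = 0.173) and 0.24 (adjusted p = 0.111), and their oxidoreductase Etfdh by 0.15.

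Among the enzymes for unsaturated chains, the isomerases Eci1 and Eci2 differed by 0.10 and 0.17. The mitochondrial dienoyl-CoA reductase Decr1 was, with Cd36, the other member with a negative difference. It averaged 6.25 ± 0.89 in Fam13a-/- smoke lungs and 6.60 ± 0.52 in wild-type smoke lungs (-0.34 ± 0.18, adjusted p = 0.344). The peroxisomal reductase Decr2 differed by 0.11. Of the peroxisomal members, the thiolase Acaa1a differed by 0.17 (adjusted p = 0.134), the bifunctional enzymes Hsd17b4 and Ehhadh by 0.07 and 0.02, and Pex11a, a peroxisome division protein, by 0.27 (adjusted p = 0.354). Acaa1a and Acaa1b are near-identical, so the Acaa1a signal may include its paralogue.

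Of the regulators, Ppargc1a, the coactivator PGC-1alpha that raises mitochondrial gene expression, had values of 4.86, 6.93 and 7.35 in Fam13a-/- smoke lungs, against 5.02, 6.34 and 7.23 in wild-type smoke lungs. The lowest array of both groups was a Fam13a-/- array, while 11 of the 13 lay above the wild-type mean, and the difference was 0.48 ± 0.17 (adjusted p = 0.08). It was called in the deposited normalized values (0.19, adjusted p = 0.0317), without background correction (0.32, adjusted p = 0.0446), without replicate 1 (0.55, adjusted p = 0.0477) and without replicate 12 (0.64, adjusted p = 0.00789). Mlycd, which removes malonyl-CoA, the inhibitor of carnitine palmitoyltransferase 1, differed by 0.05.

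**Figure D2:**
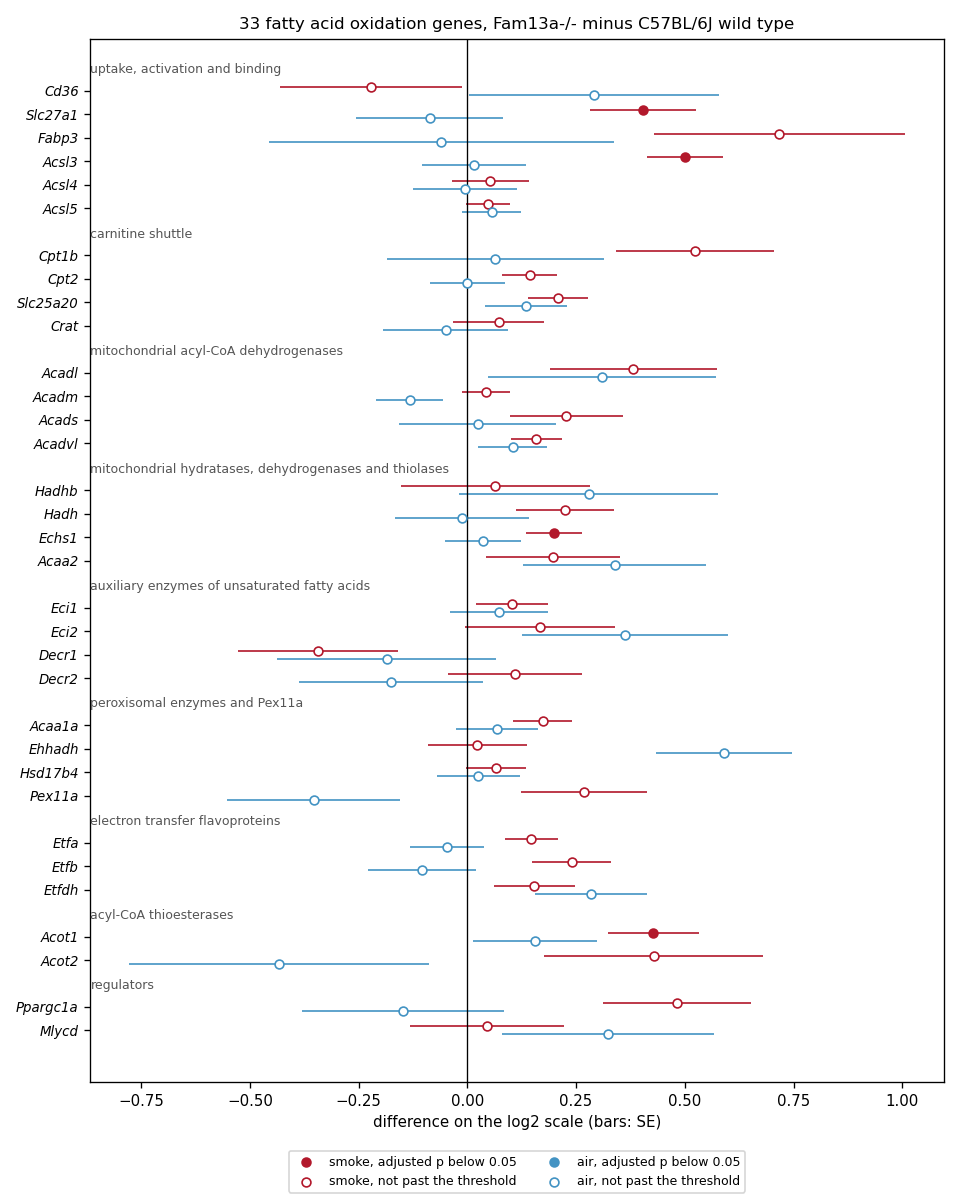
Difference of Fam13a-/- minus wild type on the log2 scale (horizontal axis, bars are SE) for the 33 measured genes, grouped by role, after smoke (red) and in air (blue); filled points have a limma adjusted p below 0.05. After smoke, 31 of 33 points lie right of 0 and 4 are filled, and in air none is filled.

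Markers of several cell types moved with the smoke comparison. The 22 measured heart and striated muscle markers had positive differences in 22 of 22, with a median of 0.83, and 3 were called higher: Nppa (2.86), Nppb (0.52) and Tnni3 (0.77). The mean of these markers had a lowest, median and highest value of 6.50, 9.80 and 10.2 in Fam13a-/- smoke lungs, against 6.15, 8.92 and 10.0 in wild-type smoke lungs. Of 9 adipocyte markers 5 were higher (median 0.51; range of their mean 6.02 to 7.47 in Fam13a-/- and 5.85 to 7.17 in wild type). Plin1, Retn, Ucp1 and Fabp4, adipocyte-defining genes, were detected on 0 arrays, while Adipoq was detected on 80. Of 9 ciliated cell markers 7 were higher (median 0.59; range of their mean 8.03 to 9.02 in Fam13a-/- and 7.43 to 8.32 in wild type), and of 10 club cell markers 5 were higher (median 0.88; range of their mean 9.90 to 12.6 in Fam13a-/- and 9.25 to 12.5 in wild type). Of 13 capillary endothelial markers 3 were lower, and of 12 alveolar type 2 and 11 macrophage markers none was called.

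The called members kept positive differences when the mean of a marker list was added to the fit, a setting chosen after seeing the data, but calls were lost. With muscle markers as a covariate 2 members were called, Acsl3 (0.47, adjusted p = 0.00114) and Acot1 (0.40, adjusted p = 0.0239). With adipocyte markers 1 was called, Acsl3 (0.42, adjusted p = 0.0435), and with club cell markers 1, again Acsl3 (0.39, adjusted p = 0.0213). The number of all probes called with muscle, adipocyte or club cell markers is not given here. Whether the loss of calls is particular to the members was therefore not examined. With ciliated cell markers 0 of the 33 members and 0 of all 15363 probes were called. In that fit Acsl3 differed by 0.28, Acot1 by 0.34 (adjusted p = 0.202), Slc27a1 by 0.28 (adjusted p = 0.368) and Echs1 by 0.09 (adjusted p = 0.54). Whether these cell types contribute to the member differences was not tested.

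Within wild-type lungs, Fabp3 and Cpt1b followed the muscle markers. Over 28 wild-type smoke arrays, Fabp3 had r = 0.90 (permutation p = 1e-05) and rho = 0.88 (permutation p = 1e-05) with the mean of the 22 markers, and r = 0.94 without the 2 arrays farthest from the median. Cpt1b had r = 0.79 and rho = 0.83 (permutation p = 1e-05 each), and r = 0.80 without those 2 arrays. Over 22 wild-type air arrays, Fabp3 had r = 0.94 and rho = 0.93 (permutation p = 1e-05 each, r = 0.91 without 2 arrays), and Cpt1b had r = 0.71 (permutation p = 0.00018) and rho = 0.65 (permutation p = 0.0014; r = 0.55 without 2 arrays). The smallest p the 100000 permutations could give was 1e-05. For r, these were the only 2 of 33 members past an adjusted p of 0.05 in either group, among 132 relations to muscle and adipocyte markers, with an adjusted p of 0.00044 in all but Cpt1b in air, where it was 0.00594. By rho, Acadm in air passed as well (rho = 0.69, permutation p = 0.00069, adjusted p = 0.0228), while its r of 0.61 did not (permutation p = 0.00248, adjusted p = 0.0655; r = 0.66 without the 2 farthest arrays). Acsl3 had r = 0.19 in smoke and r = 0.26 in air with the muscle markers. Correlations of members with ciliated or club cell markers were not computed. With muscle markers as a covariate the Fabp3 difference between Fam13a-/- and wild-type smoke lungs was -0.01 (adjusted p = 0.992), and that of Cpt1b was 0.17 (adjusted p = 0.647).

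**Figure D3:**
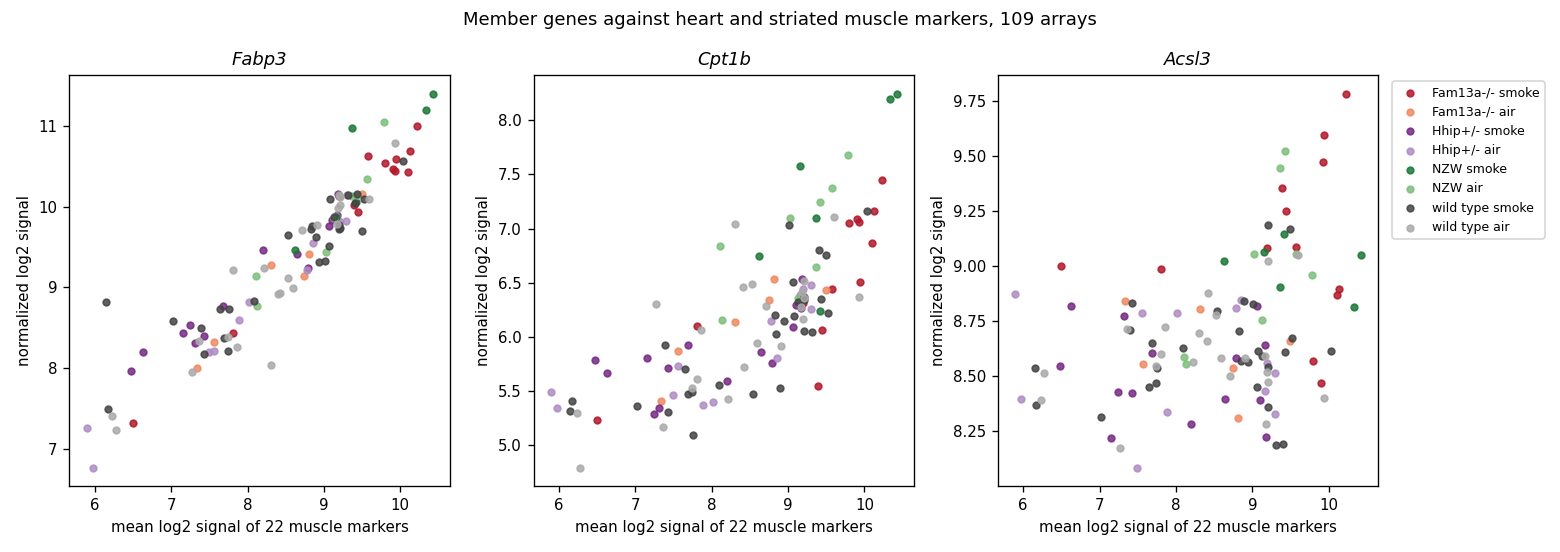
Normalized log2 signal of Fabp3, Cpt1b and Acsl3 (vertical axes) against the mean log2 signal of 22 heart and striated muscle markers (horizontal axes) on all arrays, coloured by group. Fabp3 climbs with the markers (r = 0.90 in wild-type smoke lungs), while Acsl3 shows little relation to these muscle markers (r = 0.19).

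Further genes of the pathway and its neighbours were counted in lists of related genes. The counts stand beside 5.77% of all genes called between Fam13a-/- and wild-type smoke lungs, and 3.54% called higher. No list was tested as a set. Of 26 further genes of mitochondrial oxidation, 1 was higher in Fam13a-/- smoke lungs and none lower: Bbox1, which makes carnitine, averaged 8.06 in Fam13a-/- and 7.30 in wild type (0.76 ± 0.14, limma adjusted p = 0.000203). Of 25 peroxisomal genes 2 were higher, the branched-chain acyl-CoA oxidase Acox2 (0.44, adjusted p = 0.00386) and the very-long-chain acyl-CoA synthetase Slc27a2 (0.47, adjusted p = 0.0217). Of 11 PPAR targets outside oxidation 2 were higher, the lipid droplet protein Plin5 (0.63, adjusted p = 0.00219) and Pdk4, which turns off pyruvate entry into mitochondria (0.83, adjusted p = 0.0115). None of 17 PPAR and PGC-1 regulators and none of 4 ketone body genes was called. Of 15 genes of lipolysis and uptake 1 was lower, Slc27a6 (-0.35, adjusted p = 0.0257). Of 21 tricarboxylic acid cycle genes 2 were higher, Idh3a (0.24) and Fh1 (0.21), and of 19 fatty acid synthesis genes 2 were higher, Thrsp (0.51) and Dgat2 (0.36). List medians were between -0.06 and 0.15, against 0.17 for the members.

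In air, loss of Fam13a was compared over fewer arrays, 6 against 22. No member was called by limma and neither was any of the 11346 genes (0% of all). At an unadjusted p below 0.05, 2 members and 686 of all genes passed. The median member difference was 0.03. Acsl3 averaged 8.62 ± 0.20 in Fam13a-/- air lungs and 8.60 ± 0.21 in wild-type air lungs. Acot1 differed by 0.16, Slc27a1 by -0.09 and Echs1 by 0.04. The 4 largest differences were those of Ehhadh, Acot2, Eci2 and Pex11a. Ehhadh averaged 5.496 ± 0.20 in Fam13a-/- air lungs and 4.91 ± 0.22 in wild-type air lungs (0.59 ± 0.16, adjusted p = 0.565). Its probe was detected on 5 of 6 Fam13a-/- and 0 of 22 wild-type air arrays, so the wild-type level is only a bound, set at each array's lowest detected signal, and the fold is at least 1.04. Among the 33 measured members, limma with array weights called Ehhadh alone (0.54, adjusted p = 0.00726). The number of all probes called in that fit is not given here. Acot2 averaged 5.49 ± 0.52 and 5.92 ± 0.72 (adjusted p = 0.951), Eci2 9.52 ± 0.15 and 9.16 ± 0.46 (adjusted p = 0.911) and Pex11a 8.82 ± 0.39 and 9.17 ± 0.44 (adjusted p = 0.893), with the Fam13a-/- mean before the wild-type mean each time. Fabp3 had values of 7.997, 9.21 and 10.15 in Fam13a-/- air lungs, against 7.23, 9.16 and 10.79 in wild-type air lungs. Cpt1b averaged 6.12 ± 0.42 and 6.06 ± 0.58, and Cd36 5.49 ± 0.67 and 5.19 ± 0.61, in the same order. The muscle, adipocyte, ciliated and club marker lists had median differences between -0.02 and 0.08 in air, and none of their genes was called.

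Smoke and air were compared within each genotype. In Fam13a-/- lungs 1 member was higher after smoke, 3.03% of the 33, against 1.97% of all genes called in either direction and 1.22% called higher. It was Acsl3, with values of 8.47, 9.08 and 9.78 in smoke lungs, against 8.31, 8.61 and 8.84 in air lungs. The ranges overlapped, and the difference was 0.49 ± 0.13 (limma adjusted p = 0.0228). This comparison and that of Fam13a-/- with wild type after smoke share the 13 Fam13a-/- smoke arrays. The call was lost without air replicate 1 or 3 or smoke replicate 11, and with any of the 4 marker lists as a covariate. Fabp3 differed by 0.997 ± 0.42 (adjusted p = 0.221) and Ppargc1a by 0.63 ± 0.25 (adjusted p = 0.183).

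No member was called by limma in Hhip+/- lungs, where 0.203% of all genes were, in NZW/LacJ lungs, where 0.855% were, or in wild-type lungs, where 0.899% were. At an unadjusted p below 0.05, 1 member passed in Hhip+/-, 4 in NZW/LacJ and 2 in wild-type lungs, against 658, 1506 and 927 of all 11346 genes. In NZW/LacJ, array weights called 4 members and 2725 of 15363 probes. In wild-type lungs the largest difference was that of Acaa2, which averaged 9.85 ± 0.45 in smoke lungs and 9.53 ± 0.64 in air lungs (0.31 ± 0.13, adjusted p = 0.47). In Hhip+/- lungs Acot1 averaged 12.06 ± 0.30 in smoke lungs and 12.38 ± 0.19 in air lungs (-0.31 ± 0.12, adjusted p = 0.663). In NZW/LacJ lungs Hadhb averaged 10.75 ± 1.07 in smoke lungs and 9.95 ± 1.10 in air lungs (0.80 ± 0.35, adjusted p = 0.302), or 0.75 without the doubted arrays (adjusted p = 0.281). Outside the members, the peroxisomal Acox2 was higher after smoke in all 4 genotypes: by 0.96 in Fam13a-/- (adjusted p = 1.16e-05), 0.76 in Hhip+/- (adjusted p = 1.71e-05), 0.94 in NZW/LacJ (adjusted p = 0.000815; 1.023 without the doubted arrays) and 0.66 in wild type (adjusted p = 2.32e-08).

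The smoke effect in Fam13a-/- minus that in wild type was tested as an interaction. No member was called by limma, and 0.0353% of all genes were. At an unadjusted p below 0.05, 7 of the 33 passed, against 1381 of all genes, and array weights called 1 member and 825 of 15363 probes. The interaction was 0.49 ± 0.15 for Acsl3 (adjusted p = 0.161), 0.49 ± 0.21 for Slc27a1 (adjusted p = 0.343) and -0.57 ± 0.19 for Ehhadh (adjusted p = 0.209). A smoke effect particular to the knockout was therefore not shown for any member.

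Loss of 1 copy of Hhip left no member called, in air, where 0.0705% of all genes were, or after smoke, where 1.68% were. At an unadjusted p below 0.05, 1 member passed in air and 3 after smoke, against 965 and 1710 of all genes. Array weights called 1 member in each, with 298 probes called in air and 715 after smoke. The median member difference was 0.06 in air and -0.02 after smoke. In air Acaa2 averaged 9.87 ± 0.28 in Hhip+/- lungs and 9.53 ± 0.64 in wild-type lungs (0.34 ± 0.16, adjusted p = 0.613). After smoke Acaa1a averaged 12.27 ± 0.15 in Hhip+/- lungs and 12.11 ± 0.13 in wild-type lungs (0.16 ± 0.07, adjusted p = 0.211). Acsl3 averaged 8.51 ± 0.21 in Hhip+/- smoke lungs and Fabp3 9.03 ± 0.73, Cpt1b 5.85 ± 0.35 and Cd36 5.19 ± 0.60. In Hhip+/- air lungs the means were 8.56 ± 0.26, 8.86 ± 1.09, 5.86 ± 0.45 and 5.29 ± 0.57 for Acsl3, Fabp3, Cpt1b and Cd36. In the related lists, Gpihbp1, which holds lipoprotein lipase on capillaries, was lower (-0.52, adjusted p = 1.73e-05), and Slc27a3 (0.65, adjusted p = 0.00841) and the fatty acid elongase Elovl1 (0.37, adjusted p = 0.0101) were higher in Hhip+/- smoke lungs.

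The strains differed across much of the array. In air, 6 members were higher and 10 lower in NZW/LacJ than in C57BL/6J, 48.5% of the 33, against 42.9% of all genes called, 24.6% higher and 18.4% lower. After smoke, 9 were higher and 10 lower, 57.6% of the 33, against 50.7% of all genes called, 25.8% higher and 24.9% lower. These shares are near those of all genes. Without the 2 doubted arrays 15 members were called in air and 24 after smoke. A term for sample numbers 36 to 41, which hold 6 of the NZW/LacJ arrays, left 11 and 3 calls, and it was chosen after seeing the data. The term covers 4 of the 6 NZW/LacJ smoke arrays and 2 of the 8 air arrays. Only 2 smoke arrays lie outside it, and 1 of these is the doubted smoke replicate 5. The shares of all probes called without the doubted arrays and with the term are not given here. Whether these shifts in the counts are particular to the members was therefore not examined. Leaving out single NZW/LacJ arrays, 9 of the 16 members called in air stayed called in all 8 fits: Slc27a1, Acsl3, Acsl4, Acsl5, Cpt1b, Crat, Acadl, Acaa2 and Eci1. After smoke 12 of 19 stayed called in all 6 fits: Slc27a1, Fabp3, Acsl3, Acsl4, Acsl5, Cpt1b, Slc25a20, Crat, Hadhb, Acaa2, Acaa1a and Hsd17b4.

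Cpt1b was higher in NZW/LacJ in both treatments. Its values were 6.24, 7.34 and 8.25 in NZW/LacJ smoke lungs, against 5.10, 6.05 and 7.16 in C57BL/6J smoke lungs, and 6.16, 6.97 and 7.68 in NZW/LacJ air lungs, against 4.80, 6.22 and 7.11 in C57BL/6J air lungs. The ranges overlapped, yet all 6 and all 8 NZW/LacJ arrays lay above the C57BL/6J mean. The differences were 1.35 ± 0.24 after smoke (limma adjusted p = 2.56e-06) and 0.87 ± 0.22 in air (adjusted p = 0.00103), or 1.57 and 0.98 without the doubted arrays. A second Cpt1b probe, detected on only 24 arrays, was also higher, by 0.58 and 0.62, or 0.79 and 0.62 without them. That probe was detected on 3 of 6 NZW/LacJ and 5 of 28 C57BL/6J smoke arrays, and on 5 of 8 and 2 of 22 air arrays.

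Fatty acid uptake genes went both ways. Slc27a1 had values of 5.82, 6.39 and 7.21 in NZW/LacJ smoke lungs, against 6.63, 7.16 and 7.70 in C57BL/6J smoke lungs. It was lower in NZW/LacJ, with a difference of -0.80 ± 0.16 after smoke (limma adjusted p = 2.73e-05) and of -0.81 ± 0.15 in air (adjusted p = 6.13e-06), or -0.86 and -0.91 without the doubted arrays. Cd36 had values of 4.32, 6.43 and 7.11 in NZW/LacJ smoke lungs, against 4.41, 5.26 and 6.17 in C57BL/6J smoke lungs, a difference of 0.84 ± 0.28 (adjusted p = 0.00916). In air it averaged 5.91 ± 0.78 in NZW/LacJ and 5.19 ± 0.61 in C57BL/6J (0.72 ± 0.26, adjusted p = 0.0182). Without the doubted arrays the Cd36 differences were 1.20 and 0.80. Fabp3 had values of 9.46, 10.51 and 11.40 in NZW/LacJ smoke lungs, against 7.49, 9.63 and 10.56 in C57BL/6J smoke lungs, a difference of 1.17 ± 0.39 (adjusted p = 0.0086). In air its difference was 0.75 ± 0.36 (adjusted p = 0.08), called without the doubted arrays (0.90, adjusted p = 0.0396).

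The acyl-CoA synthetases also split. Acsl3 averaged 9.0 ± 0.12 in NZW/LacJ smoke lungs and 8.61 ± 0.24 in C57BL/6J smoke lungs (0.39 ± 0.12, limma adjusted p = 0.0032), and the air difference was the same to 2 decimals (adjusted p = 0.00202). Without the doubted arrays it was 0.36 and 0.45. Acsl4 had values of 7.04, 7.40 and 8.16 in NZW/LacJ smoke lungs, against 7.84, 8.18 and 8.61 in C57BL/6J smoke lungs, a difference of -0.69 ± 0.12 (adjusted p = 7.21e-07). In air its difference was -0.57 ± 0.11 (adjusted p = 9.2e-06), and without the doubted arrays the values were -0.82 after smoke and -0.72 in air. Acsl5 averaged 12.39 ± 0.16 in NZW/LacJ smoke lungs and 12.64 ± 0.13 in C57BL/6J smoke lungs, and its difference was -0.26 in both treatments (adjusted p = 0.000729 after smoke and 0.000293 in air), or -0.31 and -0.29 without them. Of the carnitine genes, Crat averaged 8.34 ± 0.52 in NZW/LacJ smoke lungs and 7.81 ± 0.27 in C57BL/6J smoke lungs (0.53, adjusted p = 0.00102). In air Crat was higher by 0.65 (adjusted p = 2.29e-05), and the 2 differences were 0.62 and 0.63 without the doubted arrays. The second Crat probe, detected on 16 arrays, went the other way, by -0.25 after smoke and -0.27 in air, and was not called. Without the doubted arrays it gave -0.39 after smoke, then called lower (adjusted p = 0.0192), and -0.22 in air, not called. Slc25a20 averaged 10.21 ± 0.22 in NZW/LacJ smoke lungs and 10.64 ± 0.23 in C57BL/6J smoke lungs (-0.43, adjusted p = 5.46e-05), and its second probe was lower by more (-1.35, adjusted p = 2.77e-07). Without the doubted arrays these probes gave -0.50 and -1.71.

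In the mitochondrial spiral, the thiolase Acaa2 was lower in NZW/LacJ. Its values were 7.91, 8.72 and 10.28 in NZW/LacJ smoke lungs, against 8.86, 9.86 and 10.66 in C57BL/6J smoke lungs, and 8.26, 8.62 and 9.43 in NZW/LacJ air lungs, against 8.40, 9.73 and 10.65 in C57BL/6J air lungs. The differences were -1.02 ± 0.21 (limma adjusted p = 2.01e-05) and -0.80 ± 0.19 (adjusted p = 0.000352), or -1.31 and -0.83 without the doubted arrays. Acadl averaged 8.14 ± 0.99 in NZW/LacJ smoke lungs and 8.88 ± 0.54 in C57BL/6J smoke lungs (-0.74, adjusted p = 0.0112; -0.81 in air, adjusted p = 0.00343), or -1.07 and -0.75 without the doubted arrays. The second Acadl probe differed by -0.04 after smoke and 0.00 in air. Hadhb had values of 8.98, 11.33 and 11.51 in NZW/LacJ smoke lungs, against 8.34, 9.87 and 10.13 in C57BL/6J smoke lungs, a difference of 1.20 ± 0.29 (adjusted p = 0.000348). It was 1.37 without the doubted arrays, and -0.09 (adjusted p = 0.892) with the term for sample numbers, outside which lie only 2 NZW/LacJ smoke arrays. In air it was 0.37, or 0.59 without the doubted arrays (adjusted p = 0.0661), and was not called.

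The other members called between the strains had smaller differences. Eci1 averaged 9.81 ± 0.22 in NZW/LacJ smoke lungs and 10.11 ± 0.26 in C57BL/6J smoke lungs, Decr2 5.31 ± 0.77 and 5.83 ± 0.41, Hsd17b4 10.97 ± 0.31 and 11.44 ± 0.18, and Acot1 11.68 ± 0.42 and 12.08 ± 0.32, all lower in NZW/LacJ. Acaa1a averaged 12.50 ± 0.35 in NZW/LacJ smoke lungs and 12.11 ± 0.13 in C57BL/6J smoke lungs, Ehhadh 5.40 ± 0.64 and 4.97 ± 0.33, and Eci2 9.77 ± 0.77 and 9.22 ± 0.47, all higher. In air Eci1 (-0.33), Decr2 (-0.49), Hsd17b4 (-0.26) and Slc25a20 (-0.23) were lower in NZW/LacJ and Acaa1a (0.26) was higher. Without the doubted arrays the smoke differences were -0.39 for Eci1, -0.78 for Decr2, -0.57 for Hsd17b4, -0.52 for Acot1, 0.49 for Acaa1a, 0.51 for Ehhadh and 0.59 for Eci2. Those in air were then -0.28 for Eci1, -0.60 for Decr2, -0.33 for Hsd17b4, -0.26 for Slc25a20 and 0.29 for Acaa1a, and all of these stayed called. Acads was called higher in air alone (7.87 ± 0.41 in NZW/LacJ and 7.49 ± 0.39 in C57BL/6J) and Etfdh lower in air alone (8.62 ± 0.33 and 8.90 ± 0.28). Both calls were lost without the doubted arrays (0.34, adjusted p = 0.0867, and -0.23, adjusted p = 0.0998). Acads was then called higher after smoke instead (0.48, adjusted p = 0.0236), while its second probe was called lower there (-0.72, adjusted p = 0.00548). Whether strain differences vary with treatment was tested for no member.

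**Figure D4:**
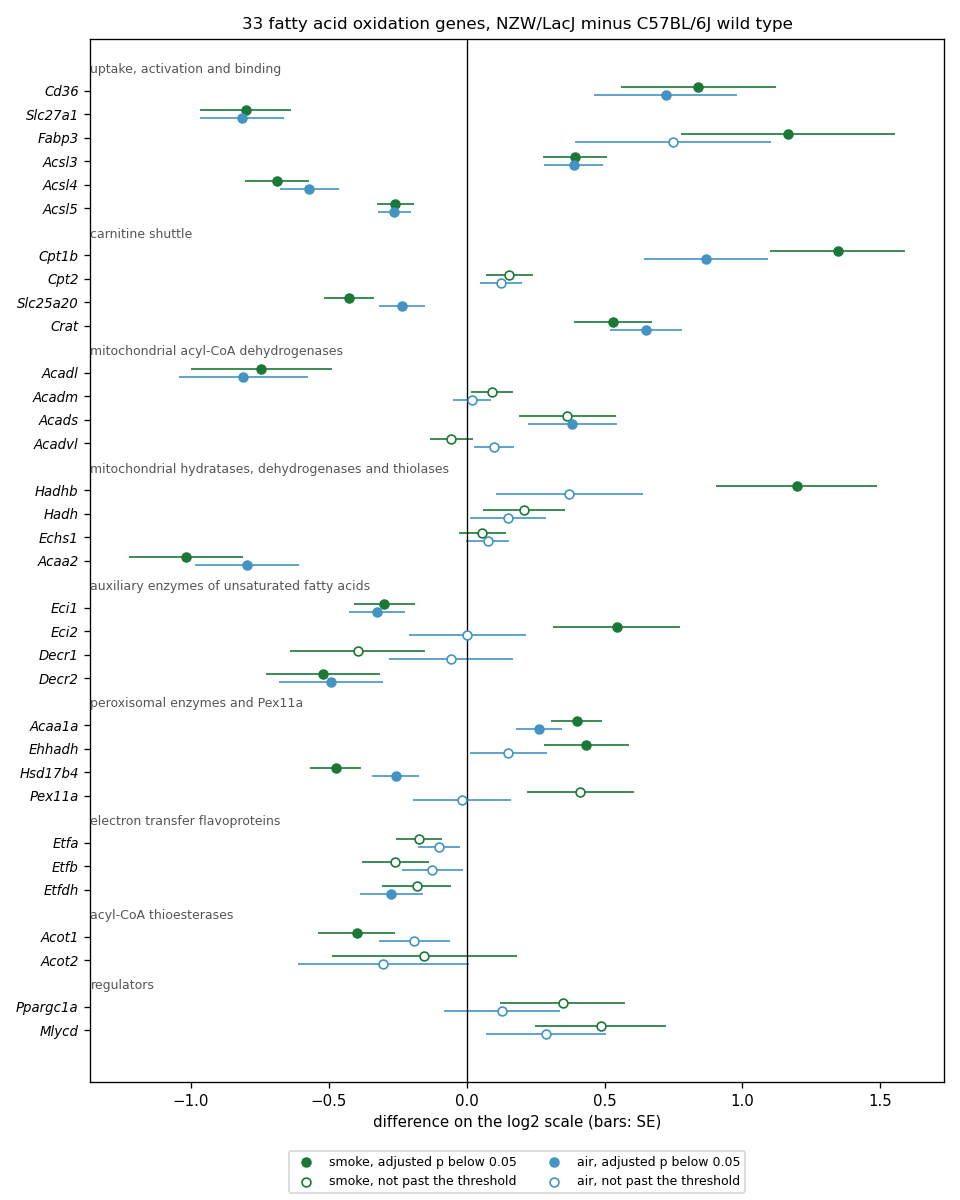
Difference of NZW/LacJ minus C57BL/6J wild type on the log2 scale (horizontal axis, bars are SE) for the 33 measured genes by role, after smoke (green) and in air (blue); filled points have a limma adjusted p below 0.05. After smoke 9 filled points lie right of 0 and 10 left of it, from -1.02 for Acaa2 to 1.35 for Cpt1b.

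Marker lists moved with strain as well. In NZW/LacJ the muscle markers had median differences of 0.85 in air and 1.22 after smoke, with 8 and 12 of 22 higher and 1 lower in each. Alveolar type 2 markers had medians of -1.02 and -1.18, with 9 and 8 of 12 lower, and macrophage markers -0.84 and -1.08, with 7 of 11 lower in each. Ciliated cell markers had medians of 0.64 and 0.79, with 8 of 9 higher in each. Without the doubted arrays these medians, in air and after smoke, were 1.004 and 1.28 for muscle, -1.09 and -1.45 for alveolar type 2, -0.87 and -1.24 for macrophage and 0.74 and 0.89 for ciliated cell markers. Of 9 ciliated cell markers, 8 were then called higher in air, and 6 higher and 1 lower after smoke. Muscle markers were higher in 9 and 12 of 22, with 1 lower in each. Alveolar type 2 markers were lower in 9 and 8 of 12. Macrophage markers were lower in 7 of 11 in each, with 1 higher after smoke. With ciliated markers as a covariate 6 members were called in air and 9 after smoke. The share of all probes called in that fit is not given here. With muscle markers as a covariate Fabp3 differed by 0.30 after smoke (adjusted p = 0.0706). The part of these cell types in the member differences was not tested.

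Probes of the same gene could disagree in every comparison. Of the 14 members with several kept probes, 8 had probes of opposite sign between NZW/LacJ and C57BL/6J in air and 6 after smoke, against 4 between Fam13a-/- and wild type after smoke and 2 to 7 in the other 8 comparisons. The Acads probes were called in opposite directions in air, at 0.38 and -0.47, and neither was called without the doubted arrays (adjusted p = 0.0867 and 0.0546). After smoke they gave 0.37, not called, and -0.60, called (adjusted p = 0.0147). Without the doubted arrays both were called after smoke, at 0.48 and -0.72 (adjusted p = 0.0236 and 0.00548). The Acsl4 probes were called in opposite directions after smoke, at -0.69 and 0.47, or -0.82 and 0.50 without them. For Etfa, the brightest of 4 probes gave -0.17 after smoke and was not called, while others gave 0.73 and 0.77 and were called. Without the doubted arrays these were -0.24, then called (adjusted p = 0.0171), 0.86 and 0.88. Probe sequences and strain variants under the probes were not analysed here.

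**Figure D5:**
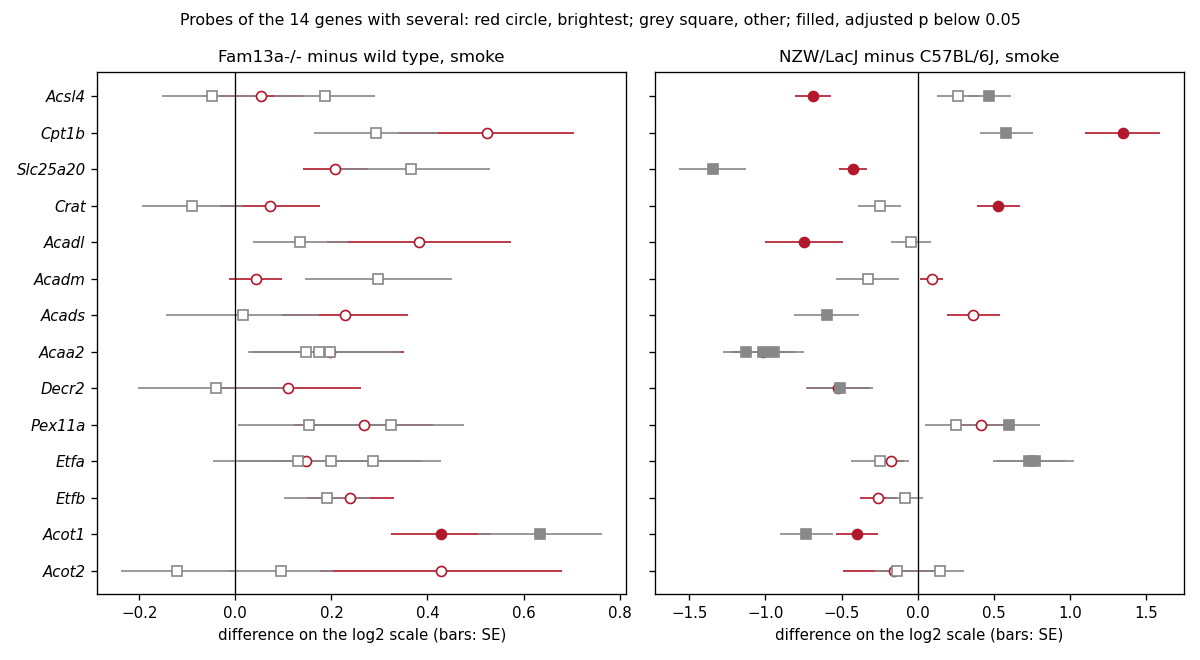
Difference on the log2 scale (horizontal axes, bars are SE) for every kept probe of the 14 genes with several, for Fam13a-/- minus wild type (left) and NZW/LacJ minus C57BL/6J (right) after smoke; red circles mark the brightest probe, grey squares the others, and filled symbols a limma adjusted p below 0.05. Both Acot1 probes are filled and right of 0 on the left, and the Acsl4 probes lie on both sides of 0 on the right.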

How the data were processed

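Each of 109 lung RNA samples was measured on its own bead array (Illumina, 1 colour). The authors deposited non-normalized intensity values with a detection p-value per probe, per the file headers; array medians ran between 66.1 and 144.5, so the arrays were not scaled to each other. The authors also deposited a table of log2 values with column medians of 7.21 to 7.22. No source used here names its normalization. With each probe centred, 109 of 109 of its columns correlated best with the same sample's intensities (lowest r 0.884), and it served as an alternative. Probes were named from the platform's annotation, updated by gene identifier (23978 probes with 1 symbol, 1719 with none).

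Intensities were corrected and quantile normalized with limma's neqc (offset 16, negative controls inferred from detection p-values; R 4.3.3, limma 3.58.1). Probes with a detection p-value below 0.01 on at least 6 arrays were kept. A model of 8 group means (lmFit and eBayes, 101 residual degrees of freedom) gave 11 contrasts, with Benjamini-Hochberg adjustment over 15363 probes. The number of arrays limits the precision. The highest correlation between 2 arrays was 0.992, and no array was treated as a repeat.

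The members, the gene lists and the tests were chosen with earlier results of these data known. Values are given for Cpt1b, Cd36 and Fabp3, for every called member and for the 4 largest Fam13a differences per treatment; from each further list at most 3 called genes per contrast are named. On simulated data with 15363 probes, differences of 0.5 were recovered in 72% of 100 changed probes for Fam13a-/- against wild type after smoke. In air this was 51%, and differences of 1 were recovered in 100% after smoke and 92% in air. Noise was drawn from a normal distribution independently for each probe, and 100 probes were changed by each amount. These shares need not hold for the real data. Alternatives were the deposited log2 values, median scaling, no background correction, other detection filters, only the groups compared, the share of detected probes as a covariate, array weights, 1 probe per gene, robust moderation, leaving out the 2 doubted arrays and leaving out each array in turn. Marker covariates and the term for sample numbers were added after seeing the data.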

Additional observations from a re-analysis of the deposited data

Results flagged for a closer look

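In groups of 4 to 10 arrays, the highest and lowest array of each member was compared with its neighbours by Dixon's test. Of 99 sets of arrays, 4 had an array far from the rest, and chance gives about 1 in 20. Acadvl read 9.43 on Fam13a-/- air replicate 5, low against 9.81 on the nearest array. Etfdh read 9.36 on NZW/LacJ air replicate 1, high against 8.66 on the nearest. NZW/LacJ smoke replicate 5, one of the arrays with low H2-Ea, was high for Acot2 (7.45, nearest 5.37) and for Eci1 (10.24, nearest 9.80).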

How the results depend on the processing

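No paired analysis was possible because replicate numbers were given in accession order and pair no samples. The count of 4 called members for Fam13a-/- against wild type after smoke was 2 with no detection filter or with muscle markers as a covariate, 1 with adipocyte or club cell markers and 0 with ciliated cell markers. Leaving out single Fam13a-/- smoke arrays gave 2 to 7. In air, array weights gave 1 call against 0, and leaving out single Fam13a-/- air arrays gave 0 each time. For smoke against air in Fam13a-/-, the 1 call became 0 when only the groups compared were fitted or with any of the 4 marker covariates, and 4 with array weights; leaving out arrays gave 0 to 2. The interaction had 1 call with array weights. For Hhip+/- against wild type, array weights gave 1 call in air and 1 after smoke, and ciliated markers 1 after smoke. For smoke against air in NZW/LacJ, array weights gave 4 calls, and leaving out arrays 0 to 2 (1 without smoke replicate 5, 2 without smoke replicate 6). For NZW/LacJ against C57BL/6J, ciliated markers left 6 calls in air and 9 after smoke, and the term for sample numbers left 3 after smoke. Leaving out single NZW/LacJ arrays gave 12 to 16 in air and 15 to 24 after smoke. Except where stated above, the number of all probes called in these fits is not given here. Whether the changes in count are particular to the members was not examined.

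Of 1121 gene settings over 73 gene results, 1027 kept their side of the threshold, 83 lost the call and 6 gained it. Only results called in the main fit could lose a call. These were 4 for Fam13a-/- against wild type after smoke and 1 for smoke against air in Fam13a-/-. Between strains they were 16 in air and 19 after smoke. The other results were not called, so the 1027 do not measure how stable the calls were. Changes of sign that were called in neither fit are counted among the 1027. Cpt1b for smoke against air in Fam13a-/- is an example, at 0.41 in the main fit and -0.13 at its lowest. In the remaining 5 the direction of a called difference turned. Acaa1a between strains in air was -0.037 with ciliated markers (adjusted p = 0.795). With the term for sample numbers, outside which lie 2 NZW/LacJ smoke arrays, 1 of them doubted, the strain differences after smoke were -0.17 for Cd36 (adjusted p = 0.799), -0.094 for Hadhb (adjusted p = 0.892), -0.18 for Eci2 (adjusted p = 0.734) and -0.15 for Ehhadh (adjusted p = 0.656). The cause of these shifts was not tested. Signal near background limits Cd36, Hadh, Ehhadh, Decr2 and Acot2, whose probes were not detected on many arrays, and the second probes of Cpt1b and Crat. Unknown sex and unknown slide limit all members, and each was called from 1 probe, though 14 had several kept probes.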
